A study of Mus musculus with 11 samples.

Results

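The comparison of conjugated linoleic acid with linoleic acid after 4 h covered 3 of the 11 arrays of the series, 2 from cells given CLA and 1 from cells given LA. The cells were 3T3-L1, an established mouse fibroblast line committed to the fat lineage and labelled as preadipocyte culture. CLA here is the trans-10, cis-12 isomer, and LA, the control, is linoleic acid itself. The other 8 arrays, 2 for each fatty acid at 8 h and at 12 h, entered the fit to give the spread between replicates. The arrays were picked by their labels, not by any measured value, and each was read as normalised probe set intensity on an Affymetrix mouse array. The labels give no dose. They call the replicates biological without saying what was kept separate, such as the culture, and each p-value measures only the spread between these arrays. The design text speaks of 2 LA samples per time, and only 1 LA array of 4 h was analysed here. Its spread could therefore not be measured and was taken to be that of the other groups.

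Long-chain fatty acids bind peroxisome proliferator-activated receptors (PPARs), nuclear receptors that switch on genes for fatty acid transport, storage and oxidation. Polyunsaturated fatty acids also hold back the processing of SREBP proteins, which drive the genes of cholesterol and fatty acid synthesis when cell sterol is low. In cells of the fat lineage the trans-10, cis-12 isomer of CLA is known for reducing stored triglyceride and, at later times, for evoking stress and inflammatory signalling.

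All 3 arrays carried the transcripts of preadipocytes. Normalised intensity of Pdgfra, a receptor of fat progenitors, was 3994 with LA and 4243 and 4174 with CLA, and Dlk1, which is lost as fat cells mature, stood at 3215, 3054 and 3128 in the same order. The adipocyte hormones Lep and Retn were at 0 in all 3 arrays and Adipoq lay below 4 in each, at 3.95, 0.330 and 1.99. Of 15 preadipocyte and fibroblast markers 12 passed the filter described next, against 3 of 15 adipocyte markers. Those 3 were Fabp4 (386 with LA, 457 and 473 with CLA), Plin4 (447, 456 and 432) and Pnpla2 (90.5, 90.6 and 97.7). Fabp4 and Plin4 lay above every later array in all 3. In the preadipocyte list Cd34 (0, 0 and 5.36) and Dpp4 (6.59, 7.05 and 2.82) were near 0 and did not pass.

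After quantile normalisation, 12356 of 45101 probe sets had a mean of 100 or more over the 11 arrays, and those with 1 gene symbol gave 7306 genes. At the edge of that filter Polr3gl, Rrad and Mccc2 were just inside, with means of 100.04, 100.05 and 100.2, and Polk, Pdik1l and Pomt2 just outside, at 99.96, 99.91 and 99.86. The median absolute log2 difference over genes was 0.12 and 0.13 between the LA array and the CLA arrays of 4 h and 0.08 between the CLA arrays. The LA array held the lowest deposited intensity of the series, −907, followed by −430 in replicate 1 of CLA at 12 h, against −239 to −175 in the other 9. Before scaling its median was 18.9 against 14.4 and 15.1 in the CLA arrays of 4 h. The GAPDH 3′ to 5′ ratio, a sign of RNA quality, was 1.08 against 0.888 and 0.928, and the actin ratio was 1.75 against 1.47 and 1.69. In the 4 h comparison these values moved with the fatty acid. The actin ratio, though, differed more between the CLA arrays than between the LA array and the nearer one. The part of all these values in the results was not tested.

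After 4 h, 9 of 7306 genes (0.123%) passed an adjusted p of 0.05 between CLA and LA in limma, of which 1 was higher (0.0137%) and 8 were lower (0.109%) with CLA. The higher gene, Dstn (destrin, which severs and depolymerises actin filaments), had an intensity of 2817 in the LA array and of 3660 and 3676 in the CLA arrays. Those values did not overlap, and the 8 h and 12 h arrays all lay above them, up to 5002. Dstn was 1.30-fold higher with CLA (log2 difference 0.38 ± 0.05 SE, adjusted p = 0.0268). At an unadjusted p under 0.05 there were 640 genes (8.76%), 225 higher (3.08%) and 415 lower (5.68%). The median log2 difference of all genes was −0.02. The LA array lay outside both CLA arrays in 79.1% of all genes, above both in 45% and below both in 34.1%, and the difference had 1 sign at all 3 times in 45.3%. For scale, the same fit called 0 genes at 8 h, with 270 at an unadjusted p under 0.05 (3.7%), and 2475 genes (33.9%) at 12 h. At 8 h the CLA arrays differed from each other by a median of 0.183 on the log2 scale, more than any LA array from a CLA array (0.0848 to 0.170).

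**Figure D1:**
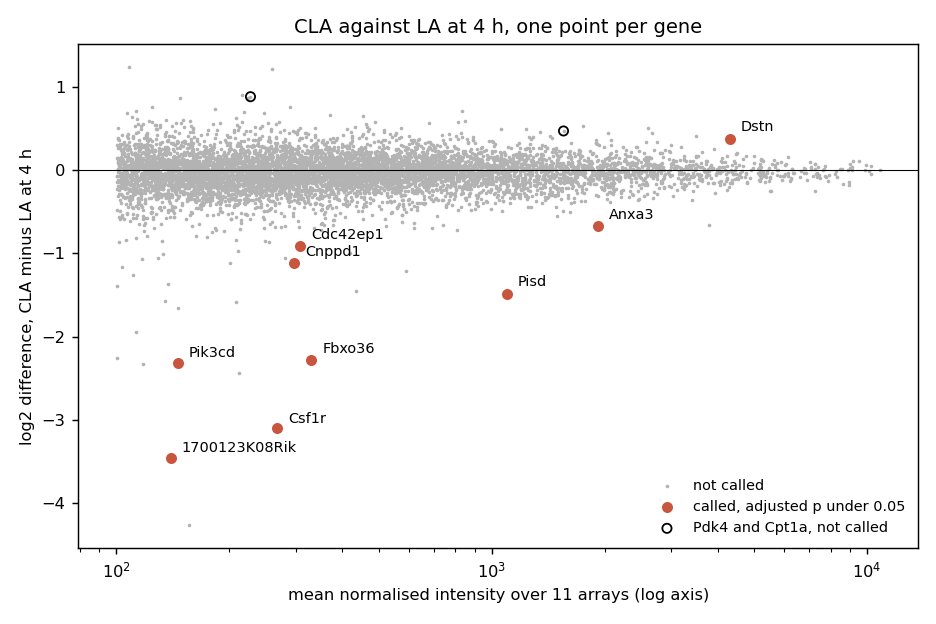
Each point is 1 of 7306 genes, with its mean normalised intensity over the 11 arrays on the x axis (log scale) and the log2 difference of CLA minus LA at 4 h on the y axis. The 9 called genes are filled in red, 8 of them below 0, and Pdk4 (0.89) and Cpt1a (0.47), circled, were not called.

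Among the 8 lower genes were a receptor and a kinase of growth factor signalling. Csf1r, which receives the macrophage growth factor CSF1, had an intensity of 1171 with LA and of 168 and 109 with CLA. The CLA values lay within the range of the later arrays apart from the lowest one, whereas the LA value exceeded every other array, the next being 426. Csf1r was 8.56-fold lower with CLA (log2 −3.10 ± 0.36, adjusted p = 0.0138). Pik3cd, the catalytic delta subunit of phosphoinositide 3-kinase, read 479 with LA and 102 and 88.8 with CLA. It was 4.97-fold lower (−2.31 ± 0.33, adjusted p = 0.0268), and the LA array again stood above the other 10. For both genes the other probe sets were dim, at 45.7, 32.1 and 22.8 and at 40.4, 8.83 and 6.51 for Csf1r and at 19.1, 8.35 and 8.18 for Pik3cd, each in the order LA and then the CLA arrays.

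Because Csf1r marks macrophages, the whole list of 19 macrophage markers was read beside it. Only Csf1r and Cd14, which stood at 484 with LA and 535 and 564 with CLA, passed the filter, and 5 of the 19 lay at or below background (8.89, the 95th percentile of unspiked controls) in all 3 arrays. C1qa was at 0 in all 3, Ptprc at 4.16, 6.93 and 4.54, and Tyrobp at 2.81, 6.61 and 2.42. The summed level was 1891 with LA and 946 and 924 with CLA, and without Csf1r it was 721 with LA and 779 and 815 with CLA. The sum for 11 measured T and NK cell markers was also higher with LA, at 136 against 46.5 and 39.0, with none past the filter, and lay between 41.4 and 130 in the 8 later arrays. Most of that LA sum came from Zap70, at 114 with LA and 17.8 and 6.10 with CLA. Cd8a went the other way, at 11.3 with LA and 19.4 and 23.0 with CLA. The part of these sums in the results was not tested. All 3 arrays are labelled as culture of the 3T3-L1 line, and shares of cell types were not measured. In bulk samples in general, fewer cells of a type and less RNA per cell cannot be told apart.

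The next were genes of membranes and the cell cortex. Pisd, which makes phosphatidylethanolamine in mitochondria by decarboxylating phosphatidylserine, read 2434 with LA and 902 and 840 with CLA. It was 2.79-fold lower (−1.48 ± 0.22, adjusted p = 0.0315). Anxa3, a calcium-dependent phospholipid-binding annexin, read 1957 with LA and 1249 and 1215 with CLA, a 1.59-fold difference (−0.67 ± 0.09, adjusted p = 0.0173). It was the 1 called gene whose LA array lay inside the range of the other arrays. For Anxa3 the CLA arrays of 4 h were the low ones, below all 8 later arrays. Cdc42ep1, an effector of the GTPase Cdc42 that shapes actin, read 518 with LA and 274 and 276 with CLA (−0.91 ± 0.13, adjusted p = 0.0270).

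The last 3 have roles that are less well described. Fbxo36, an F-box protein of the kind that hands substrates to ubiquitin ligases, read 730 with LA and 163 and 136 with CLA. The 8 later arrays lay between these, from 232 to 378. Its log2 difference of −2.28 ± 0.22 had the smallest adjusted p of the comparison (0.00358), while its other probe set, dimmer at 41.5, 53.04 and 65.4, differed by 0.49 the other way. Cnppd1, which carries a cyclin-like domain, read 546 with LA and 255 and 246 with CLA (−1.12 ± 0.14, adjusted p = 0.0173). The RIKEN transcript 1700123K08Rik read 745 with LA and 64.5 and 68.0 with CLA (−3.46 ± 0.52, adjusted p = 0.0315). Its mean over the 11 arrays was 139.5. Apart from 226 in replicate 1 of CLA at 12 h, its values outside the LA array ran from 54.2 to 75.1. Without the LA array its mean would have been below the limit of the filter. The filter thus kept this gene through the value under test, which limits its calls here and below.

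**Figure D2:**
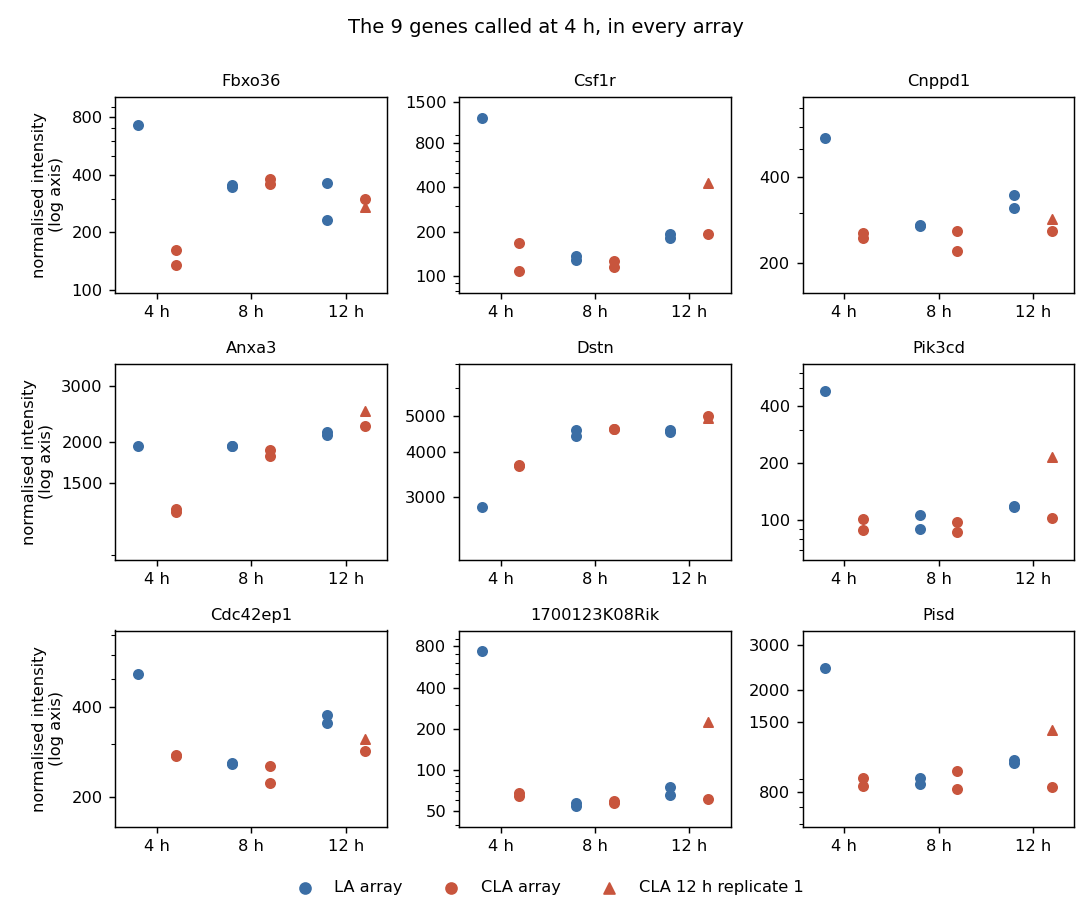
Normalised intensity (log axis) of the 9 genes called at 4 h in each of the 11 arrays, LA in blue and CLA in red, by time, with replicate 1 of CLA at 12 h drawn as a triangle. The LA array of 4 h lies outside the other 10 in 8 of the 9 panels, and the triangle is the next highest in Csf1r (426), Pik3cd (216), 1700123K08Rik (226) and Pisd (1391).

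The LA array of 4 h lay outside the other 10 arrays in 8 of the 9 called genes, as it did in 25% of all genes. In 7 of the 8 lower genes it was the highest of the 11 arrays. Replicate 1 of CLA at 12 h, the other array with a very low deposited minimum, was the highest of the remaining 10 in 5 of the 8 (62.5%), and in 18 of the 25 genes (72%) lower by at least 1 on the log2 scale. Genes that differed by at least 1 in either direction made up 0.37% of all genes. Among all genes it was so in 5%. Cphx3, singled out after its values were seen, had the most negative fitted difference (−4.27, adjusted p = 0.206). It read 874 in the LA array, 59.0 and 32.1 in the CLA arrays and 413 in that 12 h array, against 39.2 in its replicate. What these 2 arrays share was not tested. That 12 h array does not enter the 4 h difference. Leaving it out of the fit therefore changes only the spread, and cannot show what the 2 arrays share.

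The count of 9 depended on which arrays supplied the spread. It was 3 without CLA replicate 1 of 4 h and 5 without replicate 2. It was 2 without either LA array of 8 h, 4 without either CLA array of 8 h, 1 without either LA array of 12 h, and 25 and 27 without replicate 1 or 2 of CLA at 12 h. Fbxo36 remained called in all 10 of these omissions, Csf1r in 6, Cnppd1, Anxa3 and Cdc42ep1 in 4 each, and Dstn, Pik3cd, 1700123K08Rik and Pisd in 2 each. In the 8 h and 12 h groups, of 2 arrays each, leaving out either array took away the same spread. The same genes among the 9 stayed called either way, so those omissions are not separate checks. With only the 3 arrays of 4 h in the fit, 1 gene was called, 1700123K08Rik.

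The authors' deposited table for 4 h holds a ratio for each probe set with its p-value, and no source used here names the arrays combined in it. The direction of that ratio is unnamed, and CLA over LA was assumed since the ratio correlated positively with the differences fitted here, so its signs were partly fixed by that choice. Over the same 7306 genes 136 had an adjusted p under 0.05 in that table (1.86%), 62 with a ratio above 1 (0.849%) and 74 below (1.01%). All 9 genes called here had a ratio on the same side of 1 in the authors' deposited table, and 5 of them passed there. For 8 of the 9 that ratio lay nearer to 1 than the difference fitted here. In the authors' deposited table the ratio was 0.451 for Csf1r (adjusted p = 4.81e-06), 0.495 for Fbxo36 (0.0209), 0.191 for Pik3cd (5.13e-04), 0.573 for Pisd (4.36e-05) and 0.817 for Anxa3 (0.00192). It was 1.10 for Dstn, which did not pass there (0.465). Of the 136 genes of the authors' deposited table, 133 had the same sign here and 99 of these an unadjusted p under 0.05. Both sets of values come from arrays of the same study and the direction was chosen to match, so the shared sign is no separate evidence.

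Genes that PPARs are known to activate in fatty acid handling lay mostly above LA, though none of the 12 that passed the filter, of 22 listed, was called over all genes. Pdk4, a kinase that shuts off pyruvate dehydrogenase and so spares glucose, read 193 with LA and 350 and 366 with CLA. Both CLA arrays were clear of the LA array, and they were the highest 2 of the 11. The log2 difference was 0.89 ± 0.17, or 1.85-fold (adjusted p = 0.122), with 0.48 at 8 h and 0.28 at 12 h. Cpt1a, which loads long-chain fatty acids onto carnitine for entry into mitochondria, read 1482 with LA and 2090 and 2026 with CLA. Its difference was 0.47 ± 0.10 (adjusted p = 0.162), and its other 2 probe sets gave 0.43 and 0.39. Angptl4, a secreted inhibitor of lipoprotein lipase, read 1845 with LA and 2499 and 2537 with CLA (0.45 ± 0.15, adjusted p = 0.397).

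In the authors' deposited table all 3 of these genes passed, with a ratio of 1.95 for Pdk4 (adjusted p = 7.76e-08), 1.98 for Cpt1a (3.03e-06) and 1.34 for Angptl4 (4.36e-05). Fabp4, a fatty acid carrier, had a ratio of 1.23 there (0.04996). Here it read 386 with LA and 457 and 473 with CLA (0.27 ± 0.15, adjusted p = 0.679). Plin2, the coat protein of small lipid droplets, differed little at 4 h, at 1857 with LA and 1959 and 2196 with CLA (0.16 ± 0.11, adjusted p = 0.748), against 0.54 at 8 h. Of the 12 genes 3 were higher at an unadjusted p under 0.05 (25%, against 3.08% of all genes) and 0 lower. The list's median difference was 0.20, against −0.02 for all genes, and 4 of the 12 (33.3%) were higher with CLA at all 3 times, as were 13.7% of all genes.

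The enzymes of fatty acid oxidation, with 20 of 22 passing the filter, had a median of 0.13 and no called member. Acadl, the long-chain acyl-CoA dehydrogenase, read 1312 with LA and 1529 and 1552 with CLA (0.23 ± 0.10, adjusted p = 0.525). Hadh, which catalyses a later step of the cycle, went the other way, at 1624 with LA and 1300 and 1269 with CLA (−0.34 ± 0.11, adjusted p = 0.364). In the authors' deposited table Cpt1a had a ratio above 1 and Hadh (0.845) below 1 among the passing members. Etfdh, which passes electrons from fatty acid oxidation to the respiratory chain, lay at 0.27 ± 0.12 (adjusted p = 0.570).

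The promoter of Cpt1a is shown because Cpt1a is the member with 3 agreeing probe sets. The sequence is from RefSeq, build GRCm38.p6, chr19:3323051-3323350 on the + strand, from 250 bases before the start to 50 after it. Capitals mark the hexamer AGGTCA, which nuclear receptors of the PPAR kind recognise, here on the reverse strand as TGACCT and beginning at −94.
Cpt1a promoter: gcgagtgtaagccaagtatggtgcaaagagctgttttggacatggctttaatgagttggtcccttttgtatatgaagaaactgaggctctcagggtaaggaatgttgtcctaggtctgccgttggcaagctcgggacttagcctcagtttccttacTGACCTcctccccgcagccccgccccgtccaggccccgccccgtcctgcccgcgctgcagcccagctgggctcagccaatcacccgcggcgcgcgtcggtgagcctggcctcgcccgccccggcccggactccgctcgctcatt
AGGTCA was found on either strand in 16.3% of 32851 promoters of this length, in 13.9% of the tested genes that had one, and in 4 of 17 fatty acid oxidation genes. The full PPAR response element, with 2 such hexamers 1 base apart, was in 0.0396% of all promoters and in 0 of the 17. These motifs, like those below, were chosen after the values were seen, and a match describes the letters of this window and no more.

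Genes of cholesterol synthesis and low-density lipoprotein uptake, driven by SREBP2, lay on both sides of LA. Of 22 that passed the filter, of 27 listed, none was called, 6 were higher at an unadjusted p under 0.05 (27.3%, against 3.08%) and 1 lower (4.55%, against 5.68%), with a median of 0.12. Hmgcs1, which makes HMG-CoA at the head of the pathway, read 944 with LA and 1102 and 1188 with CLA (0.28 ± 0.10, adjusted p = 0.397). Msmo1, which removes methyl groups from the sterol ring, read 2092 with LA and 2513 and 2553 with CLA (0.28 ± 0.09, adjusted p = 0.364). Both CLA arrays were above the LA array in each gene, by more than they differed from each other.

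The other members higher at that level were Fdps (0.30), which makes farnesyl diphosphate, Nsdhl (0.25), Sqle (0.25), the squalene epoxidase, and Cyp51 (0.31), with adjusted p from 0.389 to 0.496. The member lower at that level was Mvd, the mevalonate diphosphate decarboxylase, at 221 with LA and 146 and 136 with CLA (−0.64 ± 0.22, adjusted p = 0.397). Idi1, which acts directly after Mvd, lay at 0.22 ± 0.20 at 4 h against 1.17 ± 0.16 at 12 h (adjusted p = 9.04e-04). Insig1, a sterol sensor that retains the SREBP complex, lay at 0.36 ± 0.20 (adjusted p = 0.657). At 8 h the difference was −0.08 for Hmgcs1, 0.04 for Msmo1 and −0.05 for Fdps, and 0.19 for Idi1, −0.22 for Insig1 and −0.19 for Mvd, none of them called, and at 12 h Hmgcs1 was higher by 0.60 ± 0.08 (adjusted p = 7.22e-04). Of these members 4 passed in the authors' deposited table with a ratio above 1 and 0 below, namely Hmgcs1 (1.22), Msmo1 (1.25), Nsdhl (1.26) and Sqle (1.24).

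Promoters of Hmgcs1 and Msmo1 are shown because these 2 members also passed in the authors' deposited table and at 12 h. They are RefSeq sequences of build GRCm38.p6, at chr13:119690101-119690400 on the + strand and at chr8:64733529-64733828 on the − strand. Capitals mark the sterol regulatory element letters TCACCCCAC, found at −137 in Hmgcs1, and the box CCAAT, or ATTGG on the reverse strand, which the factor NF-Y binds. The motifs do not overlap here.
Hmgcs1 promoter: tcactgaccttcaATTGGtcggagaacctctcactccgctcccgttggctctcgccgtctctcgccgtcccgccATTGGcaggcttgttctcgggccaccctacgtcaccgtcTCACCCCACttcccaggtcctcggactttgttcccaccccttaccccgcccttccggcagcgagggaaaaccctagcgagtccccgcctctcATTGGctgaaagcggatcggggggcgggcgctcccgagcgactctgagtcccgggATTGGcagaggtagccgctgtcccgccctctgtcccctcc
Msmo1 promoter: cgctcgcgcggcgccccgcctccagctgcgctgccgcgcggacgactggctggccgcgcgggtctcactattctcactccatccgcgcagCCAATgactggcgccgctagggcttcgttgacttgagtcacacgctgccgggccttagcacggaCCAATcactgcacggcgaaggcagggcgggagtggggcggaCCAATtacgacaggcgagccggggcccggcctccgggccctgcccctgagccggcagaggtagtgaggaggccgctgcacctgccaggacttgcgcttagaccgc
The box began at −237, −176, −45 and 11 in Hmgcs1 and at −160, −96 and −55 in Msmo1. CCAAT was in 17 of the 18 cholesterol genes with a promoter entry (94.4%), against 37.4% of all promoters and 42.8% of tested genes. TCACCCCAC was in 1 of the 18, against 0.551% of all promoters.

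In fatty acid and triglyceride synthesis, SREBP1 territory, 16 of 23 genes passed the filter and none was called, with a median of 0.09. Scd2, a stearoyl-CoA desaturase, read 3584 with LA and 4053 and 4046 with CLA (0.18 ± 0.06, adjusted p = 0.427). Its difference was 0.39 ± 0.05 at 12 h (adjusted p = 7.60e-04). Fads2, the delta-6 desaturase that acts on linoleic acid itself, lay at 0.38 ± 0.15, Me1, which makes NADPH, at 0.30 ± 0.12, and Elovl1, an elongase of very long chains, at −0.29 ± 0.09, with adjusted p from 0.381 to 0.509. In the authors' deposited table Scd2 (1.16) and Elovl1 (0.826) passed.

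**Figure D3:**
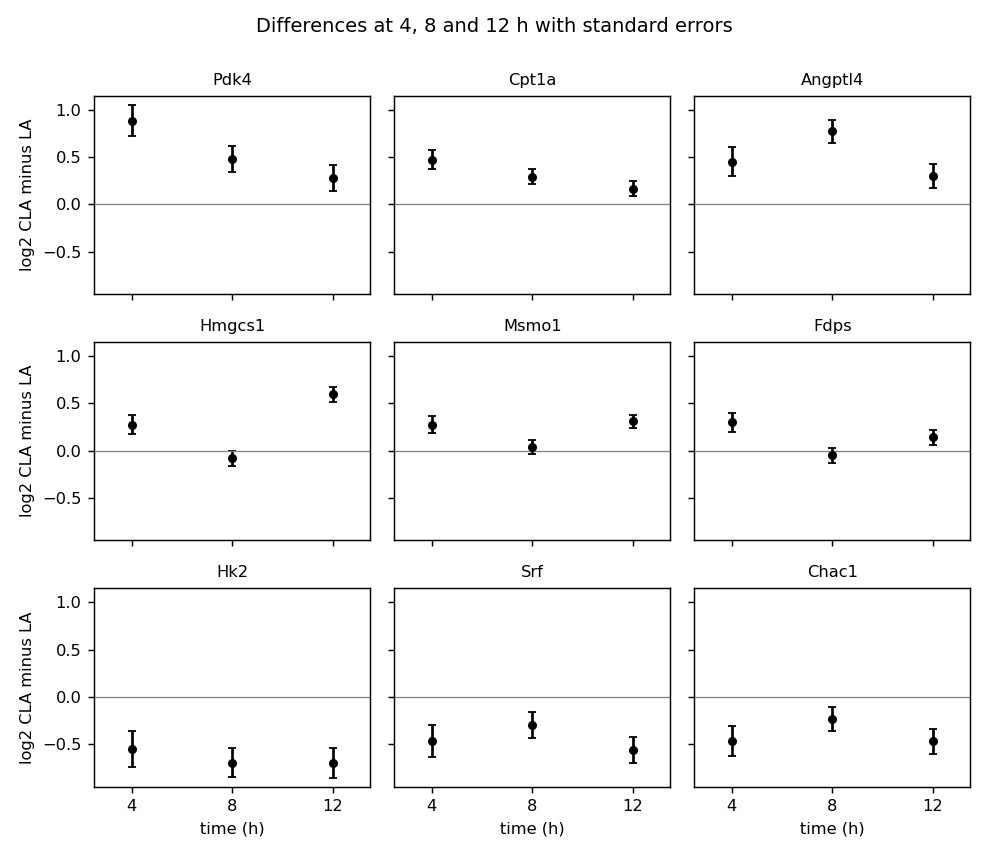
Log2 difference of CLA minus LA (y axis, bars are standard errors of the fit) at 4, 8 and 12 h (x axis) for 9 genes. Pdk4 and Cpt1a have their highest point at 4 h (0.89 and 0.47), Hmgcs1, Msmo1 and Fdps are near 0 at 8 h, and Hk2, Srf and Chac1 are below 0 at all 3 times.

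Of the genes of glycolysis and the hypoxia response, 19 of 29 passed the filter, with a median of −0.14. The difference was below 0 in 14 of the 19 (73.7%), against 55.2% of all genes, and above 0 in 5. None was called, and 6 were lower at an unadjusted p under 0.05 (31.6%, against 5.68% of all genes). Hk2, the inducible hexokinase that commits glucose to the pathway, read 1174 with LA and 843 and 764 with CLA. The CLA arrays were both below the LA array, and the difference (−0.55 ± 0.19, adjusted p = 0.397) stood beside −0.69 at 8 h and −0.70 at 12 h (adjusted p = 0.00825 at 12 h). Hk1, the constitutive hexokinase, read 814 with LA and 552 and 573 with CLA (−0.53 ± 0.15, adjusted p = 0.279). Pgk1 (−0.24), Aldoa (−0.26) and Pkm (−0.26), enzymes further down the pathway, and P4ha2 (−0.40), a collagen prolyl hydroxylase, had adjusted p from 0.257 to 0.508. Hk2 (0.767) and Pgk1 (0.820) passed in the authors' deposited table. Of the 19 genes 12 (63.2%) were lower with CLA at all 3 times, against 31.5% of all genes.

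The promoter of Hk2 is shown because Hk2 was lower at all 3 times and was called at 12 h. It is from RefSeq, build GRCm38.p6, chr6:82774405-82774704 on the − strand. Capitals mark ACGTG, the core that hypoxia-inducible factors and other basic helix-loop-helix factors bind, here in reverse as CACGT at −226 and −52.
Hk2 promoter: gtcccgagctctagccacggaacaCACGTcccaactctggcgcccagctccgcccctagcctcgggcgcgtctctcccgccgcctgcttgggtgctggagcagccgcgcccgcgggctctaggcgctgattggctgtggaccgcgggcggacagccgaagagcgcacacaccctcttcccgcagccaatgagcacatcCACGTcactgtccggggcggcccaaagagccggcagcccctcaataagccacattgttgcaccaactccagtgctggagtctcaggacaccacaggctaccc
ACGTG was in 15 of the 19 glycolysis and hypoxia genes (78.9%), in 31.6% of tested genes and in 19.6% of all promoters. Hif1an, which hydroxylates hypoxia-inducible factor and blunts its activity, is no member of the list and just missed the threshold, at 337 with LA and 166 and 177 with CLA (−0.97 ± 0.16, adjusted p = 0.0512). The LA array lay above the other 10 for Hif1an, and its ratio in the authors' deposited table was 0.674 (adjusted p = 0.00421).

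Contractile and actin genes gave 6 of 19 lower at an unadjusted p under 0.05 (31.6%, against 5.68%), none called, with a median of −0.10. That median was −0.03 with arrays scaled to a common median, relative to the shift this gave over all genes, and so close to the −0.02 of all genes. Tpm2, a tropomyosin of stress fibres, read 588 with LA and 351 and 414 with CLA (−0.62 ± 0.15, adjusted p = 0.234). Myl9, a myosin light chain, lay at −0.43 ± 0.15, Actg1, cytoplasmic gamma-actin, at −0.15 ± 0.04, and Srf, the transcription factor of actin genes, at −0.46 ± 0.17 at 4 h and −0.56 ± 0.14 at 12 h (adjusted p = 0.0130 at 12 h). Acta2, smooth muscle actin, went in opposite directions in the 2 sources. It read 5531 with LA and 5100 and 5002 with CLA (−0.13 ± 0.04 here). In the authors' deposited table its ratio was above 1 (1.68), with the smallest adjusted p of all tested genes there (3.54e-11). Dstn, which takes actin filaments apart, was described above as the 1 gene called higher. Extracellular matrix genes had 6 of 27 lower at that level, such as Col1a2 (−0.18 ± 0.04), Col6a2 (−0.24 ± 0.07) and Mmp2 (−0.24 ± 0.09). The matrix list's median was −0.05, and 0.06 or 0.05 with arrays scaled to a common median or left as deposited, again relative to the shift over all genes.

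The integrated stress response and inflammatory lists, whose genes CLA is known to raise in fat cells at later times, had medians below that of all genes after 4 h. The same held later in this series. At 8 h both medians were −0.10, against −0.04 for all genes. At 12 h they were −0.19 and −0.18, against −0.12. Of 22 genes of the integrated stress response 3 were lower (13.6%, against 5.68% of all genes) and 0 higher (against 3.08%) at an unadjusted p under 0.05, with a median of −0.10, and 14 (63.6%) were lower at all 3 times, against 31.5% of all genes. Chac1, a glutathione-degrading target of ATF4, read 124 with LA and 87.5 and 90.2 with CLA (−0.47 ± 0.16, adjusted p = 0.397). Ddit3, the transcription factor CHOP, lay at −0.30 ± 0.13, Eif4ebp1, a brake on translation, at −0.21 ± 0.09, and Asns, asparagine synthetase, at −0.36 ± 0.18 with its CLA arrays far apart (716 and 1094). Without 1 array the Asns difference ran from −0.67 to −0.06. For Atf4 itself the 95% interval of the difference was −0.30 to 0.21, and for Trib3, dim at 57.8 with LA and 38.7 and 75.5 with CLA, it was −0.87 to 0.69. The amino acid carrier Slc7a5 (−0.38 ± 0.12) and its partner Slc3a2 (−0.26 ± 0.09) were not called here but passed with ratios of 0.730 and 0.837 in the authors' deposited table.

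The list of inflammatory genes had a median of −0.12 over 23 genes, 1 higher (Vcam1, an adhesion molecule, 0.21) and 1 lower (Cxcl1, a neutrophil chemokine, −0.35) at an unadjusted p under 0.05. That is 4.35% each way, near the 3.08% and 5.68% of all genes. Of the 23 genes 13 (56.5%) were lower with CLA at all 3 times, against 31.5% of all genes, and 0 were higher, against 13.7%. Cebpb, a transcription factor of early adipogenesis and of the acute-phase response, lay at −0.14 ± 0.11 (95% interval −0.39 to 0.10). Among genes of G1 and S phase, Ccne1 (cyclin E1) read 225 with LA and 116 and 106 with CLA (−1.01 ± 0.28, adjusted p = 0.292). Cdt1, which licenses replication origins, lay at −0.39 at 4 h and −0.72 at 12 h, Ccnd1 (cyclin D1) at −0.23 and −0.48, and Mcm5, part of the replicative helicase, at −0.31 and −0.80, and all 3 passed at 12 h only. Without 1 array the 4 h difference of Mcm5 ran from −0.44 to −0.18. Zmat3 (−0.38), a p53 target, Mcl1 (−0.30), which blocks apoptosis, Met (−0.53), the receptor for hepatocyte growth factor, and Pdia4 (−0.67), an endoplasmic reticulum disulfide isomerase, were among the members with the smallest p in their lists and were not called (adjusted p from 0.242 to 0.493). The iron list, 8 genes with a median of 0.17, was led by Fbxl5, an iron-sensing ubiquitin ligase subunit (518 with LA, 716 and 822 with CLA, 0.56 ± 0.15, adjusted p = 0.279). The iron exporter Slc40a1 lay at 0.39 ± 0.19 and the transferrin receptor Tfrc at 0.21 ± 0.15. Most of the remaining lists had medians from −0.06 to 0.07, against −0.02 for all genes. The median was 0.07 for adipogenic transcription factors and for p53 targets, 0.03 for lipid nuclear receptors and 0.02 for heat shock proteins. NRF2 targets and the respiratory chain stood at 0.01, and prostaglandin synthesis and TGF-beta signalling at −0.02. Immediate early genes and endoplasmic reticulum chaperones stood at −0.03, clock genes at −0.04, and amino acid transporters and G1 and S phase genes at −0.06. Insulin signalling lay within 0.01 of 0, and mitosis genes, with 4 of 24 past the filter, at −0.14.

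**Figure D4:**
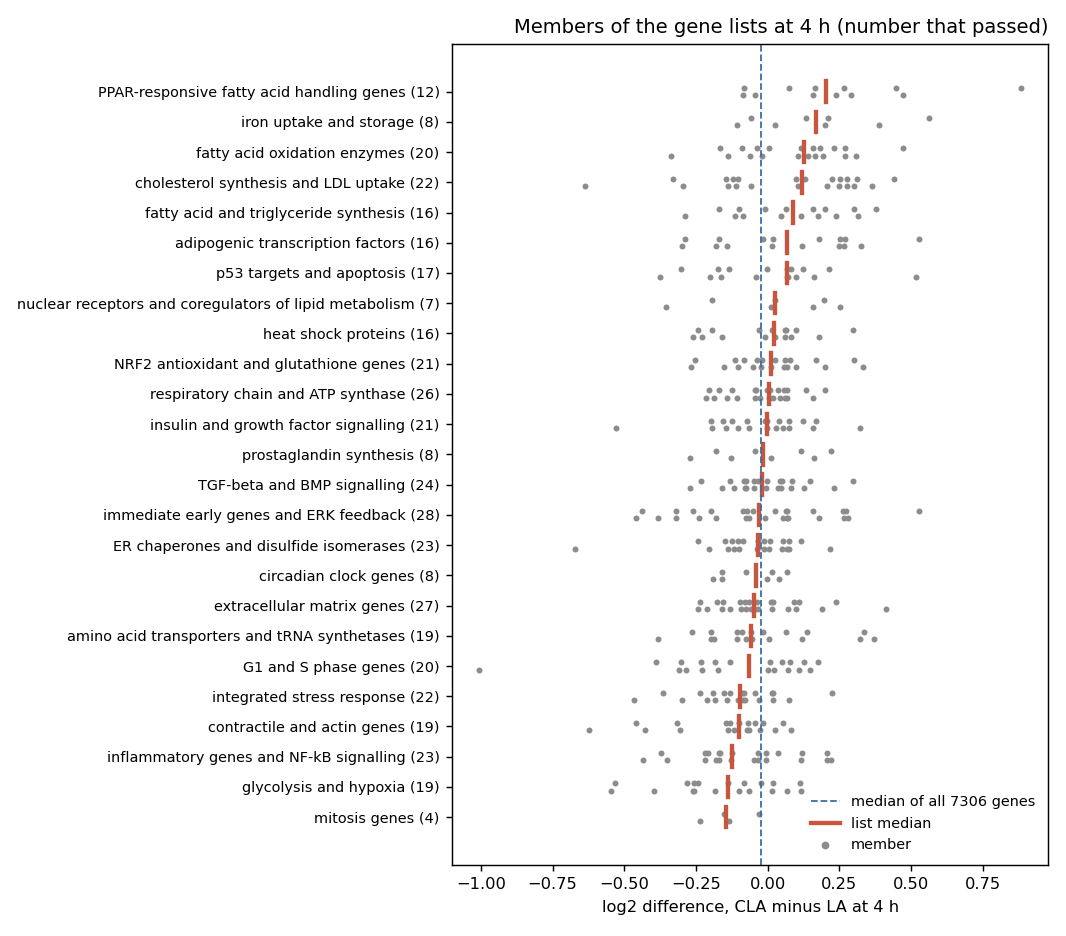
Log2 difference of CLA minus LA at 4 h (x axis) for each member that passed the filter (grey points) of the 25 gene lists (y axis, number of members in brackets). Red bars are list medians and the dashed line is the median of all genes (−0.02). Medians run from −0.14 for mitosis and for glycolysis and hypoxia genes to 0.20 for PPAR-responsive genes, and no member of any list passed the test over all genes.

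Among genes higher with CLA outside these lists, none but Dstn was called. The smallest p-values after it were those of E130307A14Rik, a RIKEN transcript (111 with LA, 268 and 254 with CLA, 1.22 ± 0.21, adjusted p = 0.0733), and Mgp, matrix Gla protein, an inhibitor of calcification (1078 with LA, 1520 and 1559 with CLA, 0.51 ± 0.09, adjusted p = 0.0733). In both the LA array was the lowest of the 11. In the authors' deposited table E130307A14Rik had a ratio of 0.799, on the other side of 1, and Mgp one of 1.21, and neither passed. The others in this group were Sec24b (0.74) and Ssr4 (0.45) of the secretory pathway, Pcyt1a (0.58), the rate-limiting enzyme of phosphatidylcholine synthesis, Mtch2 (0.53), a mitochondrial outer membrane protein, and Nrp1 (0.39), a co-receptor for VEGF and semaphorins. Their adjusted p ran from 0.135 to 0.174. The Mtch2 difference came from its brightest probe set, with a mean intensity of 1751. Another Mtch2 probe set, nearly as bright with a mean of 1651, differed by only 0.01. Those with means of 597 and 112 differed by −0.01 and −0.06. The dim ones, with means of 11.3 and 8.2, differed by 0.13 and 0.55. On the lower side the smallest p after the called genes was that of Hif1an, given above, and then that of Arid1b, a subunit of the BAF chromatin remodelling complex (397 with LA, 180 and 185 with CLA, −1.11 ± 0.19, adjusted p = 0.0733).

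The 4 h difference was tested directly against the mean of the 8 h and 12 h differences, whose LA arrays are other arrays. This change was called in 4 of 7306 genes (0.0547%), all with a lower value at 4 h, and 939 (12.9%) had an unadjusted p under 0.05. Csf1r changed by −3.34 ± 0.42 (adjusted p = 0.0264), from −3.10 at 4 h to −0.13 at 8 h and 0.62 at 12 h. Fbxo36 changed by −2.31 ± 0.25 (adjusted p = 0.0134) and Anxa3 by −0.71 ± 0.10 (adjusted p = 0.0427). Sp3, a transcription factor of GC-rich promoters, was the fourth, at −1.37 ± 0.20 (adjusted p = 0.0427). Sp3 read 639 with LA and 471 and 436 with CLA at 4 h (−0.49 ± 0.17, not called), against differences of 0.47 at 8 h and 1.27 at 12 h. For Pdk4 (0.50 ± 0.19, adjusted p = 0.344) and Cpt1a (0.24 ± 0.11, adjusted p = 0.399) the test did not separate 4 h from the later times, and none of the 5 genes with the smallest p on the higher side passed either. These were Sec24b (0.95), E130307A14Rik (1.24), Wdr41 (1.76), Nfx1 (0.84) and Dstn (0.30), with adjusted p from 0.101 to 0.160. The number called was 0 without CLA replicate 1 of 8 h, 164 without its replicate 2, 1 or 2 without any other array of 4 h or 8 h or an LA array of 12 h, and 12 and 32 without replicate 1 or 2 of CLA at 12 h.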

How the data were processed

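Expression was measured on 1-colour Affymetrix arrays from total RNA, per the labels' protocols. The deposited value table holds the authors' probe set intensity on a linear scale, with values below 0. No source used here names the software that made it. The authors' deposited 4 h table, from Rosetta Resolver per the file headers, holds, per probe set, a p-value beside a ratio given both linearly and as log10. The headers name no direction. CLA over LA was assumed, since the ratio correlated positively (r = 0.733 across genes, which are not independent) with the differences computed here. The shared arrays make this no separate evidence.

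Intensities were quantile normalised over 11 arrays, negative values set to 0, and log2(value + 1.84) taken, where the offset is the 25th percentile over the whole table. It pulls the differences of dim genes towards 0. Probe sets with a mean of 100 or more and 1 symbol in the platform annotation were kept (11403), and the brightest stood for a gene. limma 3.58.1 in R 4.3.3 fitted 1 mean for each of 6 groups (5 residual and 5.95 prior degrees of freedom, intensity trend), with Benjamini-Hochberg adjustment over 7306 genes at 0.05. For LA at 4 h, with 1 array, the spread of the other groups was assumed. The script was tested on simulated data. The number of arrays limits the precision, and no pair of arrays held identical values.

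Promoters were searched with Python 3.11.15. The members, gene lists, tests and rule for named genes were chosen with earlier results of these data known. The rule took the called genes with the LA array outside both CLA arrays, or the 10 smallest p-values in a direction with fewer than 10 calls, the 4 smallest p-values in each of 25 lists, 40 genes of lipid metabolism, stress and growth, the 5 smallest p-values in each direction of the change over time, and markers past the filter. Of the 40 genes 37 passed the filter, 1 was called, and 18 not named with values lay between −0.44 and 0.41. Alternatives covered normalisation, offset, filter, spread, probe set choice, replicate block and each array left out. LA and CLA shared only replicate number 1 at 4 h. Deviations of same-numbered arrays correlated at 0.03 at 8 h and 0.33 at 12 h.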

Additional observations from a re-analysis of the deposited data

Results flagged for a closer look

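Each of these genes had a difference at 4 h that departed, by the limma test of the change itself, from the mean of its differences at 8 h and 12 h. Csf1r changed by −3.34, Fbxo36 by −2.31, Sp3 by −1.37 and Anxa3 by −0.71 on the log2 scale. In Csf1r and Fbxo36 the LA array of 4 h was the highest of the 11, in Anxa3 the CLA arrays of 4 h were the lowest, and in Sp3 the 12 h difference (1.27) was the largest of the 3.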

How the results depend on the processing

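The count of 9 genes at 4 h (1 higher, 8 lower) became 16 with arrays scaled to a common median (1 and 15), 24 with values as deposited (0 and 24), 37 with the filter at the 40th percentile (16 and 21), 67 with no filter (13 and 54), 2 without an intensity trend (0 and 2), 1 with the 3 arrays of 4 h alone (0 and 1), 31 with the replicate block set within times (3 and 28), and 136 by the p-values of the authors' deposited table (62 and 74). With 1 array left out it ran from 1 to 27. The 4 genes of the change over time became 16 with common median scaling (2 and 14), 429 as deposited, 2 with cyclic loess, 0 without a trend (939 at an unadjusted p under 0.05 in the limma fit with a trend) and 2 with a replicate block shared by all times, and ran from 0 to 164 with 1 array left out. The replicate block shared by all times gave 8 calls at 4 h, with the call lost for Dstn, and it and the block within times are given only because the labels repeat the numbers, which were not shown to pair the samples. Under the scalings the median of all genes moved from −0.02 to 0.09 (common median) and −0.27 (as deposited), and values of named genes under them are relative to it. None of the 9 called genes changed sign in the alternatives run, and they kept their call in 121 of 205 values and lost it in 84. These values include the omissions that are not separate checks. Of the 9, 6 kept their call with common median scaling and 5 with no filter, so the larger counts do not all contain them. Dstn kept its call in 8 of 23 alternatives. It lost it with common median scaling, values as deposited and cyclic loess, so the gene higher under common median scaling was another one. Of the genes named without a call, E130307A14Rik (−0.34), Tfrc (−0.15), Acta2 (0.73) and Atf4 (0.19) took the other sign in the authors' deposited table, Atf4 also with the mean of its probe sets (0.015), the replicate block shared (9.27e-04) or within times (0.023) and without CLA replicate 2 of 4 h, and Trib3 without CLA replicate 1. With 1 array left out Atf4 ran from −0.11 to 0.023 and Trib3 from −0.56 to 0.38. Over 22 alternatives fitted here the adjusted p of Pdk4 ran from 0.0376 to 0.464, with 2 calls, and that of Cpt1a from 0.0825 to 0.642, with 0 calls by limma. The chief limit is the single LA array of 4 h, which cannot be left out.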
